A study of Mus musculus with 8 samples.

Results

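The enzymes that make, balance and remove deoxynucleotides were followed through the RNA sequencing of 32D cells that carried Jak2WT or Jak2V617F, with and without the glucose transporters GLUT1 and GLUT3. The set was defined by gene name and holds 9 of the 56748 genes in the table, and all 9 were found under their names. They are the ribonucleotide reductase subunits Rrm1, Rrm2 and Rrm2b, the thymidylate enzymes Tyms, Dut and Dtymk, the salvage kinases Tk1 and Dck, and the deoxynucleotide hydrolase Samhd1. Briefly, 7 of these genes were lower in Jak2V617F than in Jak2WT cells with intact transporters and higher again in Jak2V617F cells without them, whereas Rrm2b passed the test in no comparison and Samhd1 was highest in the Jak2V617F cells without the transporters.

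DNA synthesis needs all 4 deoxynucleoside triphosphates in balance. Ribonucleotide reductase removes an oxygen from the ribose of ribonucleoside diphosphates, and this step limits the supply in most cells. Thymidine nucleotides need a further branch, in which deoxyuridine monophosphate is methylated and then phosphorylated, and salvage kinases return free deoxynucleosides to the pool. Many of these genes are transcribed at the entry into S phase under E2F factors, so their RNA is abundant in proliferating blood progenitors and low in cells outside the cycle. SAMHD1 works in the opposite direction and cleaves deoxynucleoside triphosphates.

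32D is a mouse myeloid cell line from bone marrow that depends on IL-3 for growth, and all clones had been transduced with murine Jak2. Jak2V617F is the constitutively active form of the kinase found in myeloproliferative neoplasms, and Jak2WT is the control. The GLUT1/3 dKO clones had lost Slc2a1 and Slc2a3, which encode GLUT1 and GLUT3, through CRISPR-Cas9, and the GLUT1/3 WT clones kept both. Every group consisted of 2 single-cell clones, numbered 1 and 3, so the 8 libraries formed 4 groups: Jak2WT GLUT1/3 WT, Jak2WT GLUT1/3 dKO, Jak2V617F GLUT1/3 WT and Jak2V617F GLUT1/3 dKO. RNA was taken after 24 h in medium that held glucose at 5 mM and glutamine at 1 mM, with IL-3 at 2 ng/ml. A difference between groups therefore also holds any difference between the cells that founded the clones, and p-values measure the spread between clones of one line.

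Values are FPKM, the fragments on a gene per kilobase of its length, scaled to a fixed library total. The lengths are those deposited with the genes, from 2410 bases for Dut to 11012 for Rrm1 among the members, and need not be those of the transcripts present, so that an order of levels between genes holds only on these lengths. The libraries held 16846011 to 48884329 reads on genes, recovered from the FPKM steps, and the members had between 291 reads, for Rrm2b, and 23676 reads, for Rrm1, in a library. The transporter genes were lower in the dKO clones than in the GLUT1/3 WT clones of the same background but were not at 0, and FPKM over a whole gene do not show whether its edited sequence was lost. Slc2a1 stood at 44.7 and 48.4 FPKM in the Jak2WT GLUT1/3 WT clones against 9.47 and 9.17 in the dKO clones, and at 64 and 53 against 17.3 and 12.7 in Jak2V617F. Slc2a3 stood at 97.7 and 91.9 against 16.0 and 49.5 FPKM in Jak2WT, and at 198 and 166 against 48.2 and 23.8 in Jak2V617F. Of 10 myeloblast markers only Prtn3, Ptprc and Spi1 passed the filter described below, Cebpa and Kit were listed at 0 in all libraries, and Mpo did not exceed 0.0885 FPKM. The 10 summed to 50.6 to 50.8 FPKM in Jak2WT GLUT1/3 WT, 37.6 to 38.7 in Jak2WT GLUT1/3 dKO, 61 to 61.2 in Jak2V617F GLUT1/3 WT and 24.8 to 35.1 in Jak2V617F GLUT1/3 dKO. Of the 3 tested, 2 were lower in Jak2V617F without the transporters, where most members were higher, and Ptprc, the pan-leukocyte phosphatase CD45, stood at 31 and 33.2 FPKM against 8.81 and 10.2. The part of this sum in the members' differences was not tested. The 10 erythroid markers summed to 276 to 291 FPKM in Jak2WT GLUT1/3 WT, 422 to 449 in Jak2WT GLUT1/3 dKO, 645 to 1008 in Jak2V617F GLUT1/3 WT and 2716 to 4882 in Jak2V617F GLUT1/3 dKO. The sum was thus higher in Jak2V617F GLUT1/3 WT than in either Jak2WT group, where most members were higher, and its part in their differences was not tested. The 6 megakaryocyte markers, with Gp1bb listed at 0 throughout, summed to 63.2 to 63.7, 85.3 to 90.2, 177 to 189 and 187 to 240 FPKM in the same order of groups. The 6 mast cell and basophil markers summed to 202 to 218, 167 to 222, 156 to 164 and 122 to 163 FPKM. This sum was mostly Gata2, at 116 to 163 FPKM in the 8 libraries, while Cpa3, the mast cell carboxypeptidase, stood at 94.8, 78.2, 100 and 50.8 FPKM in the Jak2WT libraries and at no more than 1.67 in the Jak2V617F ones. The megakaryocyte sum was mostly Itga2b, at 61.3 to 87 FPKM in the Jak2WT libraries and 169 to 184 in the Jak2V617F ones, while Vwf did not exceed 0.00895. In the Jak2V617F GLUT1/3 dKO clones, Pf4 stood at 28.2 and 2.03 FPKM and Ppbp at 18.5 and 3.92. In the erythroid sum the globins Hbb-bs, from 0.0329 to 2209 FPKM, and Hba-a1, from 46.7 to 2007, had the widest ranges. The erythroid factor Gata1 averaged 29.9, 26.6, 53.4 and 37.6 FPKM in the 4 groups, and the transferrin receptor Tfrc 181, 167, 94.7 and 168. The part of these genes in the members' differences was not tested, and 3 lymphoid markers did not exceed a sum of 0.708.

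Because most members moved together, the sequence before their start sites is shown first. RefSeq windows of 300 bases, 250 before and 50 after the start, were matched for 8 of the 9 members, all but Rrm2b, from a table of the build GRCm38.p6, and each was found once in GRCm39 by its sequence. The E2F element was searched on both strands in 4 forms, written with the letters TTCCCGC, with the letters TTGGCGC, with the letters TTCGCGC or with the letters TTGCCGC, and CCAAT, the element bound by NF-Y, was searched beside it. TTGGCGC can share bases with ATTGG, the reverse of CCAAT. The 4 forms were taken up after longer letters had found no match near the members' starts in another annotation. E2F letters lay in 3 of the 8 windows, those of Rrm1, Rrm2 and Dtymk, against 9.57% of 32851 windows of the genome, and CCAAT lay in the same 3 against 37.4%. Exons annotated for the same gene covered all 250 bases before the start for Rrm2, 202 for Tk1, 177 for Dck, 171 for Samhd1 and 170 for Dut. They covered 54 for Dtymk, 12 for Rrm1 and 10 for Tyms. Part of the sequence searched can therefore be transcribed, and letters found or missing there need not describe a promoter. The longer stretches run to the edge of the exons annotated nearby, and capitals mark E2F or CCAAT letters.
Rrm1, chr7:102090690-102090889, forward strand, with E2F letters 67 bases and CCAAT 91 and 45 bases before the start: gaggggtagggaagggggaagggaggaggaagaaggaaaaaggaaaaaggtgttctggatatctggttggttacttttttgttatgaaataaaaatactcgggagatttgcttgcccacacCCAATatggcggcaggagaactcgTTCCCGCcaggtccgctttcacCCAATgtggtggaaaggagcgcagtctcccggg
Rrm2, chr12:24758191-24758220, forward strand, with CCAAT 50 bases before the start: ggtcagcggcgtCCAATgggaggcgaggcc
Dtymk, chr1:93729711-93729906, reverse strand, with E2F letters 72 bases and the reverse of CCAAT 112 bases before the start: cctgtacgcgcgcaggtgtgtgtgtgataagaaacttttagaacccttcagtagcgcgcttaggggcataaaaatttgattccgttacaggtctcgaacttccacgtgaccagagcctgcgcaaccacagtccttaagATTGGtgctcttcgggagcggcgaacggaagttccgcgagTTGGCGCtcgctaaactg
Tyms, chr5:30278634-30278833, reverse strand, shown as a member of the same behaviour with neither element: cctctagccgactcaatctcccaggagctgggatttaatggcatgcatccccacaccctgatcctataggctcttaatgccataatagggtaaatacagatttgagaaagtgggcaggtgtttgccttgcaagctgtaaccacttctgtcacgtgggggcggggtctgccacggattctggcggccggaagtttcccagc
The E2F letters of Rrm2 were on the reverse strand 235 bases before its start, outside the stretch shown. GGGCGG, the core of the GC box, lay in 6 of the 8 windows against 35.7% of all, and TTTGAA, the letters of the cell cycle homology region, in that of Dck alone against 17.9%. These matches describe the letters and do not show binding.

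The test was limma's, applied to log2(FPKM + 1) of the 11818 genes that reached 1 FPKM in 2 or more libraries. All 9 members reached this minimum. A group mean was fitted for each of the 4 groups, and the threshold on the Benjamini-Hochberg adjusted p was 0.05. Differences below are on this log2 scale with their standard error (SE), and the added 1 makes those of low genes smaller than the ratio of FPKM. The smallest two-sided p that exact permutation of 2 clones against 2 allows is 0.333, and the smaller p-values below borrow their estimate of spread from all groups and genes. In these bulk samples, fewer cells in S phase and less RNA per cell cannot be told apart. In Jak2V617F, 13.7% of all genes tested were higher in GLUT1/3 dKO and 16.2% lower, and in Jak2WT 7.62% were higher and 6.06% lower. Among GLUT1/3 WT clones 15.3% of genes were higher in Jak2V617F than in Jak2WT and 14.9% lower, and among GLUT1/3 dKO clones 7.12% were higher and 9.96% lower. The interaction of background and dKO passed the threshold for 10.6% of genes. The split of calls over all genes depended on the scaling of the libraries. With every library scaled to the same total FPKM, it moved from 1614 higher and 1919 lower to 2192 and 1452 for the loss of transporters in Jak2V617F, and from 901 and 716 to 706 and 1378 in Jak2WT. It moved from 1812 higher and 1765 lower to 1223 and 2930 for Jak2V617F among GLUT1/3 WT clones, where the median of all genes became -0.12, and from 558 and 698 to 1177 and 393 for the interaction, where it became 0.12. With any 1 of the 8 libraries left out, the calls over all genes ran from 1079 to 1358 higher and 1017 to 1684 lower for the loss of transporters in Jak2V617F. They ran from 802 to 2025 and 746 to 1944 for Jak2V617F among GLUT1/3 WT clones, lowest without a Jak2WT GLUT1/3 WT clone, and from 272 to 804 and 348 to 1220 among GLUT1/3 dKO clones, lowest without Jak2WT GLUT1/3 dKO clone 1. The members past the threshold under equal totals numbered 8, 0, 7 and 8 for these 4 comparisons.

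**Figure D1:**
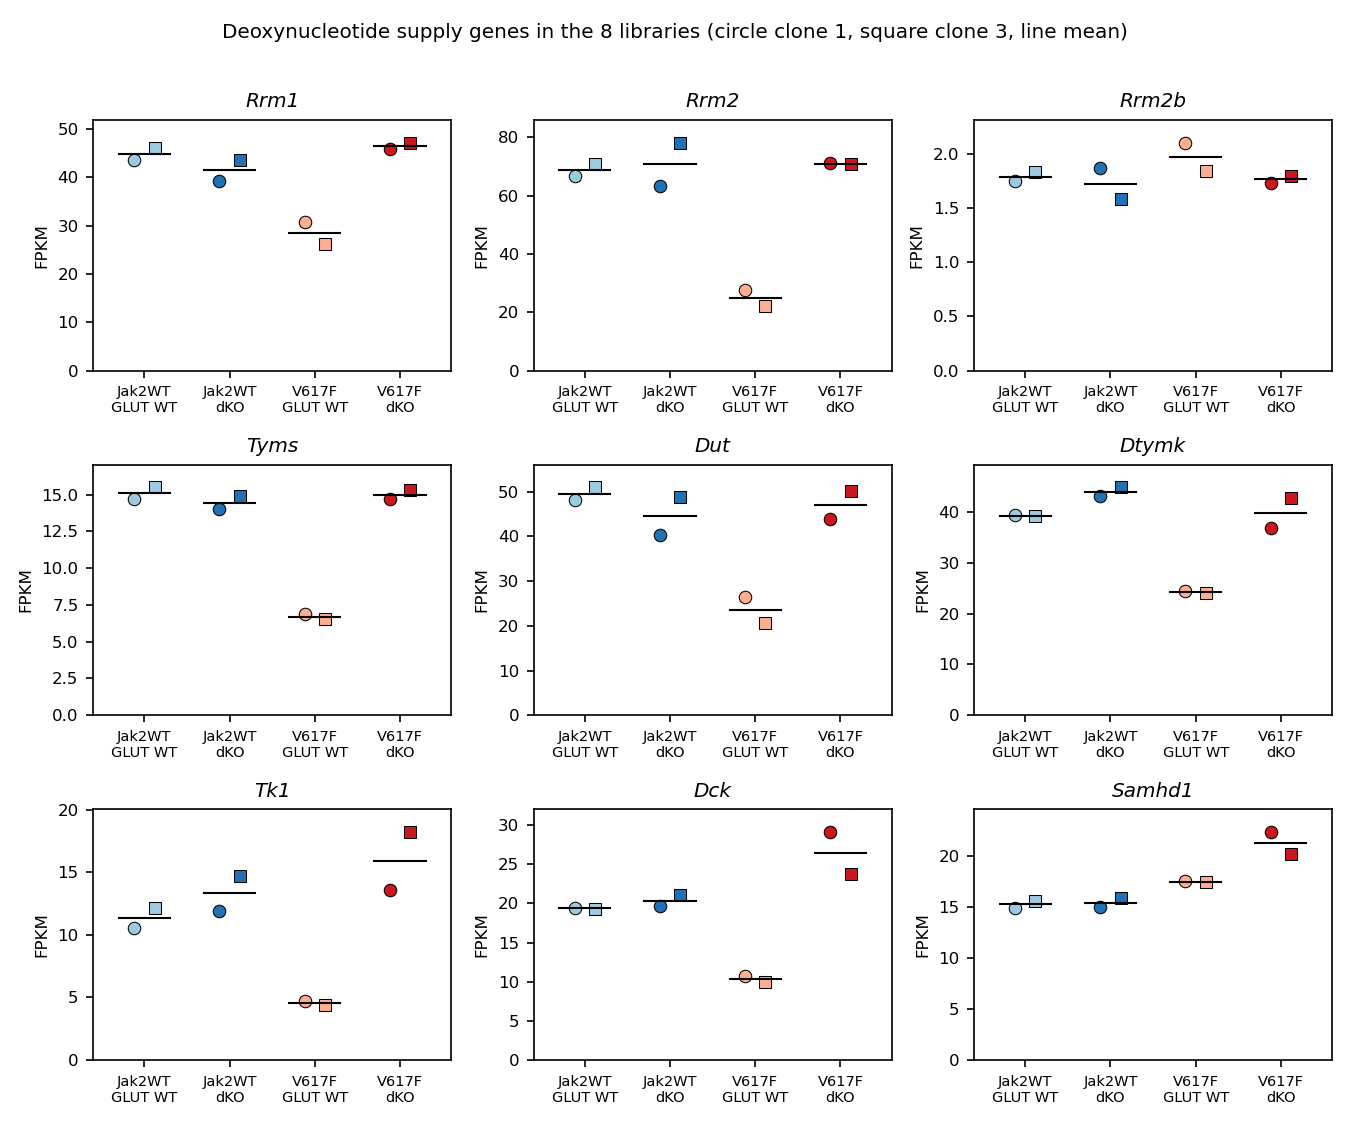
FPKM of the 9 members in the 8 libraries, 1 panel per gene with its own axis from 0, for the 4 groups along the x axis. Circles are clone 1, squares clone 3 and lines the mean of the 2 clones; the Jak2V617F GLUT1/3 WT clones sit lowest for all members but Rrm2b and Samhd1.

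The loss of GLUT1 and GLUT3 in Jak2V617F cells was compared first. Of the 9 members, 8 were higher in the Jak2V617F GLUT1/3 dKO clones, 0 were lower, and Rrm2b did not pass the test, against the 13.7% of all genes that were higher. The median difference of the members was 0.97, against -0.019 for all genes tested. The 8 genes ran from 0.27 for Samhd1 to 1.59 for Tk1, and their groups of clones did not overlap, as for 29.9% of all genes in this direction. The groups did not overlap for Rrm2b either, in the opposite direction, where 34.4% of all genes separated.

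Ribonucleotide reductase is built from the large subunit, encoded by Rrm1 (chr7:102090902-102118978, forward strand, GRCm39), which holds the active site and the sites that sense nucleotide balance. Rrm1 stood at 30.7 and 26.2 FPKM in the Jak2V617F GLUT1/3 WT clones and at 45.8 and 47.2 in the dKO clones, and it rose by 0.69 (SE 0.099; limma adjusted p = 0.0029). The small subunit of S phase, which carries the radical and is degraded late in the cycle, is encoded by Rrm2 (chr12:24758240-24764145, forward strand). Rrm2 stood at 27.6 and 22.0 FPKM in GLUT1/3 WT against 71.2 and 70.7 in dKO, so the dKO mean of 70.9 ± 0.362 FPKM (SD, n = 2) lay far above the GLUT1/3 WT mean of 24.8 ± 3.98 (SD, n = 2). This was a rise of 1.49 (SE 0.13; limma adjusted p = 0.00058), and the interval of its difference, 1.18 to 1.80, lay above that of Rrm1, 0.46 to 0.93. The alternative small subunit, induced by p53 and used outside S phase and for mitochondrial DNA, is encoded by Rrm2b (chr15:37924196-37961562, reverse strand). Rrm2b was the lowest member by far, at 2.11 and 1.85 FPKM in GLUT1/3 WT against 1.74 and 1.80 in dKO. Its difference was -0.11 with an interval from -0.38 to 0.17 (limma adjusted p = 0.524), so that a change as large as that of Rrm2 lay outside this interval. The span of Rrm2b also holds the processed pseudogene Gm3362 on the same strand, outside its exons, at 127 to 309 FPKM.

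In the thymidylate branch, dUTPase, encoded by Dut (chr2:125089110-125100528, forward strand), hydrolyses dUTP, which supplies the substrate of thymidylate synthase and keeps uracil out of DNA. Dut stood at 26.5 and 20.7 FPKM in GLUT1/3 WT and at 44.0 and 50.1 in dKO, a rise of 0.97 (SE 0.14; limma adjusted p = 0.0032). Thymidylate synthase, encoded by Tyms (chr5:30263200-30278615, reverse strand), makes dTMP. Tyms stood at 6.88 and 6.52 FPKM against 14.7 and 15.3, a rise of 1.05 (SE 0.078; limma adjusted p = 0.00039), and its clones lay closer to each other than those of most members. Its processed copy Tyms-ps did not exceed 0.0276 FPKM in any library. Thymidylate kinase, encoded by Dtymk (chr1:93720298-93729656, reverse strand), phosphorylates dTMP from both synthesis and salvage. Dtymk stood at 24.4 and 24.0 FPKM against 36.9 and 42.8, a rise of 0.69 (SE 0.088; limma adjusted p = 0.0019).

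Both salvage kinases rose as well. The cytosolic thymidine kinase of S phase, encoded by Tk1 (chr11:117706352-117716918, reverse strand), stood at 4.72 and 4.41 FPKM in Jak2V617F GLUT1/3 WT and at 13.6 and 18.2 in dKO. Its rise of 1.59 (SE 0.15; limma adjusted p = 0.00077) had the highest value among the 9 members, and its interval of 1.23 to 1.95 overlapped those of Rrm2, Dck, Dut and Tyms. Tk1 shares exon sequence with Afmid on the other strand, which stood at 0.879 to 1.64 FPKM, and the counting of strands is not given in the sources used here. Deoxycytidine kinase, encoded by Dck (chr5:88912855-88931140, forward strand), phosphorylates deoxycytidine and the purine deoxynucleosides and stood at 10.7 and 10.0 FPKM against 29.1 and 23.7. Dck rose by 1.26 (SE 0.11; limma adjusted p = 0.00053). Samhd1 (chr2:156939453-156977185, reverse strand), the hydrolase of deoxynucleoside triphosphates, stood at 17.5 and 17.4 FPKM in GLUT1/3 WT and at 22.3 and 20.2 in dKO. Its difference of 0.27 (SE 0.080; limma adjusted p = 0.042) was the smallest of those past the threshold and lost the call in 11 of 16 alternative fits, with adjusted p up to 0.143 when Jak2V617F GLUT1/3 dKO clone 1 was left out. It lost the call as well with any other library left out except Jak2V617F GLUT1/3 dKO clone 3, with adjusted p from 0.068 to 0.113. The other 7 members kept theirs in all 16.

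In Jak2WT cells, the same loss of transporters left 0 of the 9 members past the threshold, against 7.62% of all genes higher and 6.06% lower. These shares rest on 901 and 716 genes, which fell to 74 to 183 and 36 to 98 with any 1 of the 4 Jak2WT libraries left out, while the count of members was 0 in each of those fits. None had an unadjusted p under 0.05, and voom, a count-based form of limma, on the recovered reads also called 0. The median difference was 0.014 for the members and 0.0082 for all genes. Rrm2 stood at 66.7 and 70.7 FPKM in Jak2WT GLUT1/3 WT and at 63.3 and 78.2 in Jak2WT GLUT1/3 dKO, and the groups overlapped. Dut stood at 48.1 and 51.0 against 40.3 and 48.9 FPKM, and Rrm1 at 43.5 and 46.1 against 39.3 and 43.6. For each of the 3 genes the spread between clones of a group was as wide as the difference between groups. Tk1 stood at 10.5 and 12.1 against 11.9 and 14.7 FPKM and had the highest difference, 0.21, with an interval from -0.15 to 0.58. Dtymk, at 39.4 and 39.2 against 43.1 and 44.9 FPKM, and Dck, at 19.4 and 19.3 against 19.6 and 21.1, were the 2 members whose groups did not overlap, against 34.1% of all genes that separated in this direction. Their differences of 0.16 and 0.068 had adjusted p of 0.261 and 0.705 in limma. Tyms stood at 14.7 and 15.5 against 14.0 and 14.9 FPKM, Samhd1 at 14.9 and 15.6 against 15 and 15.8, and Rrm2b at 1.75 and 1.84 against 1.87 and 1.59. The interval of Tyms, the narrowest of the set, ran from -0.24 to 0.12, and the interval of Rrm2 ran from -0.28 to 0.35.

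The interaction tested whether the loss of transporters acted differently in the 2 backgrounds. It passed the threshold for 7 of the 9 members, all towards a larger rise in Jak2V617F, against 10.6% of all genes in either direction. The interaction was 1.45 for Rrm2 (SE 0.19; limma adjusted p = 0.011), 1.38 for Tk1 (adjusted p = 0.016), 1.19 for Dck (adjusted p = 0.010), 1.13 for Dut (adjusted p = 0.020), 1.12 for Tyms (adjusted p = 0.0087), 0.80 for Rrm1 (adjusted p = 0.018) and 0.53 for Dtymk (adjusted p = 0.039). Dtymk lost the call in 10 of 15 alternative fits, with limma adjusted p up to 0.140, against 1 to 4 of 15 for the other 6. For Samhd1 it was 0.25 with an interval from -0.012 to 0.52 (limma adjusted p = 0.182), which became 0.43 with limma adjusted p = 0.0486 when libraries were scaled to the same total FPKM. For Rrm2b it was -0.073 with an interval from -0.46 to 0.31. The directions did not depend on a single library, but the calls did. Without Jak2WT GLUT1/3 WT clone 3 the count fell to 0, and without clone 1 of that group or without Jak2WT GLUT1/3 dKO clone 1 it fell to 1, Tyms. The calls over all 11818 genes fell in the same fits, from 1256 to 5, 68 and 63 in that order. In those fits the values for Rrm2 were 1.41, 1.5 and 1.30 with limma adjusted p of 0.060, 0.0504 and 0.0503.

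Jak2V617F was then compared with Jak2WT among the GLUT1/3 WT clones. This comparison uses the same Jak2V617F GLUT1/3 WT clones as the first, so its values stand beside those of the first and do not add independent support. Of the 9 members, 7 were lower in Jak2V617F, 0 were higher, and Rrm2b and Samhd1 did not pass the test, against 14.9% of all genes lower. The median difference was -0.84 for the members and 0.0076 for all genes. Rrm2 stood at 27.6 and 22.0 FPKM in Jak2V617F against 66.7 and 70.7 in Jak2WT, and fell by 1.44 on the log2 scale (SE 0.13; limma adjusted p = 0.00072). Tk1, at 4.72 and 4.41 against 10.5 and 12.1 FPKM, fell by 1.14, Tyms, at 6.88 and 6.52 against 14.7 and 15.5, by 1.07, and Dut, at 26.5 and 20.7 against 48.1 and 51.0, by 1.05. Dck fell by 0.84, Dtymk by 0.68 and Rrm1 by 0.64, with limma adjusted p between 0.00035 and 0.0041. The groups of clones did not overlap for these 7, as for 33.6% of all genes in this direction, nor for Samhd1 and Rrm2b in the opposite direction, where 35.8% separated. All 7 calls held in each of the 16 alternative fits. Samhd1, at 17.5 and 17.4 FPKM against 14.9 and 15.6, differed by 0.19 with an interval from -0.00075 to 0.37 (limma adjusted p = 0.118), and Rrm2b, at 2.11 and 1.85 against 1.75 and 1.84, by 0.093 with an interval from -0.18 to 0.37.

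Among the GLUT1/3 dKO clones, 1 of the 9 members differed between the backgrounds, against 7.12% of all genes higher in Jak2V617F and 9.96% lower. Samhd1 stood at 22.3 and 20.2 FPKM in Jak2V617F GLUT1/3 dKO against 15 and 15.8 in Jak2WT GLUT1/3 dKO and was higher by 0.44 (SE 0.080; limma adjusted p = 0.012). This call was lost without Jak2WT GLUT1/3 dKO clone 1, at an adjusted p of 0.087, and without clone 3 of that group, at 0.052. Dck, at 29.1 and 23.7 FPKM against 19.6 and 21.1, differed by 0.35 (limma adjusted p = 0.063), and it passed the threshold without Jak2V617F GLUT1/3 dKO clone 3 (adjusted p = 0.017) and with 3 other scalings or tests. For the other 7 members, adjusted p lay between 0.301 and 0.965. The interval of Rrm2 ran from -0.30 to 0.33 and that of Tyms from -0.13 to 0.23, so larger differences between the dKO clones of the backgrounds lay outside them. The median difference of the members was 0.079, and that of all genes -0.023.

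**Figure D2:**
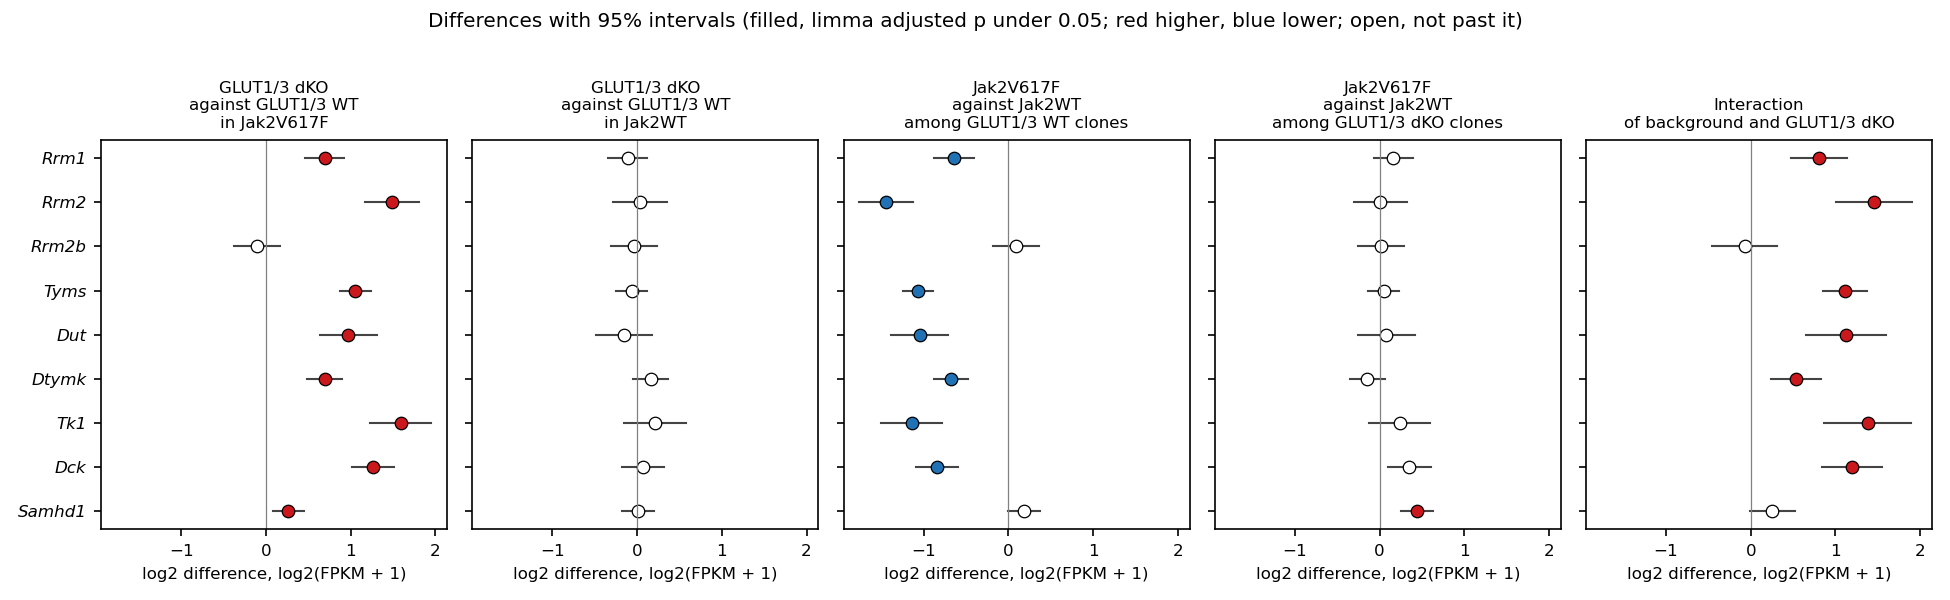
Differences of the 9 members on log2(FPKM + 1) in 4 comparisons and the interaction, with 95% intervals from limma as bars. Filled points passed the adjusted threshold of 0.05; 8 members lie above 0 in the first panel, 0 are filled in the second, 7 lie below 0 in the third, Samhd1 alone is filled in the fourth, and 7 are filled in the fifth.

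The unequal size of these changes altered the balance between members within a library. Taken per length, Rrm2 RNA was 1.53 and 1.53 times that of Rrm1 in Jak2WT GLUT1/3 WT, 1.61 and 1.79 times in Jak2WT GLUT1/3 dKO, and 1.55 and 1.5 times in Jak2V617F GLUT1/3 dKO. In the Jak2V617F GLUT1/3 WT clones it was 0.899 and 0.837 times, below the 6 other libraries. The deposited length is 11012 bases for Rrm1 and 2771 for Rrm2, so which of them had more transcripts is not shown, whereas the length cancels when a ratio is set against the same ratio in another library. Rrm2 exceeded Rrm2b by 33.9 to 49.0 times in the 3 other groups and by 13.1 and 11.8 times in Jak2V617F GLUT1/3 WT. Rrm2 exceeded Samhd1 4.22 to 4.96 times in Jak2WT of either kind, 1.57 and 1.26 times in Jak2V617F GLUT1/3 WT, and 3.20 and 3.50 times in Jak2V617F GLUT1/3 dKO. For this ratio the last group thus lay between the others, with both genes high in it. By contrast, Dut and Tyms kept a ratio of 2.89 to 3.86 in all 8 libraries, and the groups overlapped. These ratios are descriptions and were not tested.

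**Figure D3:**
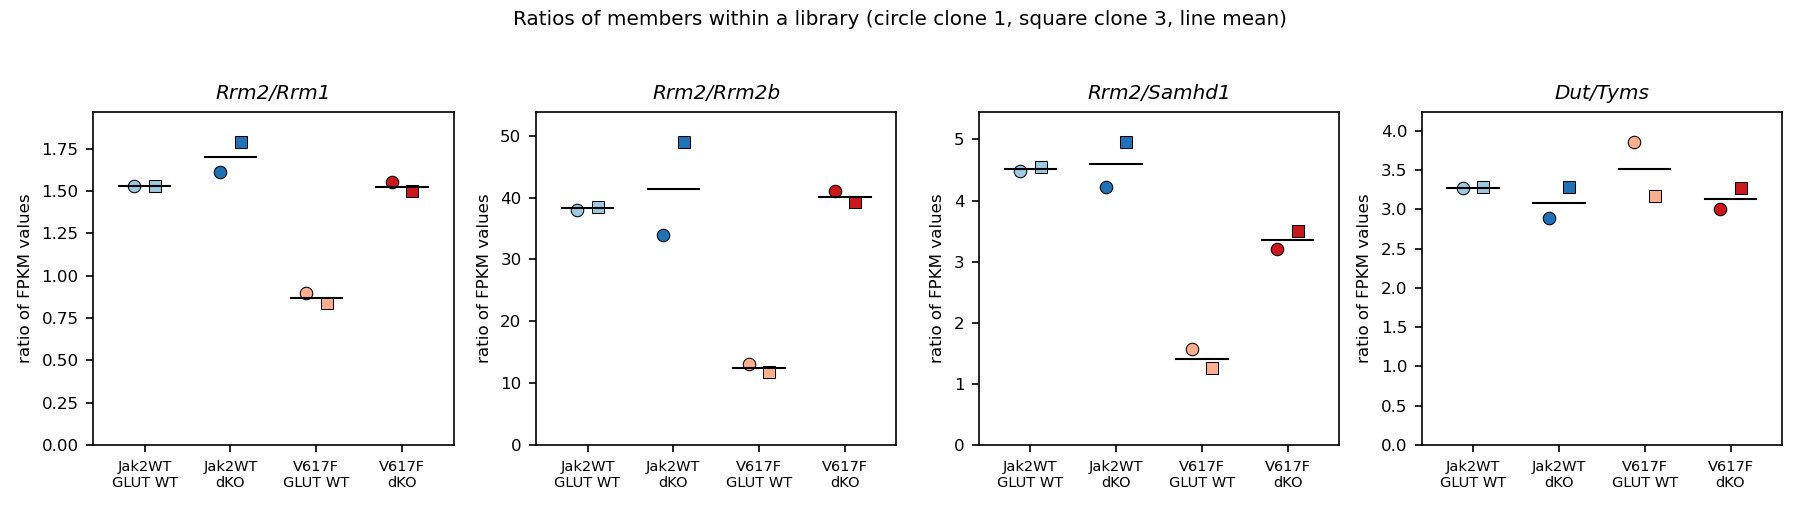
Ratios of FPKM between members within each library for the 4 groups, with circles for clone 1, squares for clone 3 and lines for the mean. Rrm2/Rrm1 is lowest in the Jak2V617F GLUT1/3 WT clones, at 0.899 and 0.837, and Dut/Tyms overlaps across groups.

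On the deposited lengths, the order of the members' levels differed between groups. In Jak2WT GLUT1/3 WT, Rrm2 led at 68.7 ± 2.85 FPKM (SD, n = 2), followed by Dut at 49.5 ± 2.03, Rrm1 at 44.8 ± 1.81 and Dtymk at 39.3 ± 0.096. Dck stood at 19.4 ± 0.0517, Samhd1 at 15.2 ± 0.493, Tyms at 15.1 ± 0.567, Tk1 at 11.3 ± 1.13 and Rrm2b at 1.79 ± 0.0591 (SD, n = 2 each), and Samhd1 and Tyms did not differ beyond their spread. In Jak2V617F GLUT1/3 WT, Rrm1 stood first at 28.5 ± 3.13 FPKM (SD, n = 2). Rrm2 at 24.8 ± 3.98, Dtymk at 24.2 ± 0.256 and Dut at 23.6 ± 4.12 FPKM (SD, n = 2 each) did not differ beyond their spread, and Samhd1, at 17.5 ± 0.0914, stood above Dck, Tyms and Tk1. In Jak2V617F GLUT1/3 dKO the order began again with Rrm2 at 70.9 ± 0.362 FPKM, then Dut at 47.1 ± 4.35 and Rrm1 at 46.5 ± 0.973 (SD, n = 2 each), which did not differ beyond their spread.

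Across the 8 libraries, the 7 members that fell and rose had pairwise Pearson correlations of log2(FPKM + 1) from 0.857 to 0.991, with a median of 0.947 over 21 pairs. Samhd1 correlated with the others at -0.166 to 0.295 and Rrm2b at -0.688 to 0.014. The points share 4 groups and their depth, so that these values are a description and carry no test. By the same measure, the 3 most similar genes were sought for each member among 1775 other genes with a mean FPKM of at least 10 and an SD of at least 0.25. They were Cdca5, Mcm3 and Tuba4a for Rrm2 (r = 0.993, 0.993 and 0.989), and Lmnb1, Cbx5 and Chaf1a for Rrm1 (r = 0.994, 0.990 and 0.989). Tyms was most like Mcm3, Cdca5 and Cbx5 (r = 0.997, 0.990 and 0.989), Dut like Cbx5, Nasp and Mcm7 (r = 0.991, 0.982 and 0.981), and Dtymk like Sapcd2, Tmpo and Tipin (r = 0.990, 0.989 and 0.989). Mcm3, for example, stood at 79.0 ± 1.01, 76.3 ± 5.67, 35.5 ± 2.52 and 83.3 ± 4.01 FPKM (SD, n = 2 each) in Jak2WT GLUT1/3 WT, Jak2WT GLUT1/3 dKO, Jak2V617F GLUT1/3 WT and Jak2V617F GLUT1/3 dKO. Tk1 was most like Pold1, Mcm10 and Cdk2 (r = 0.994, 0.993 and 0.990), and Dck like Ubn1, Mis18a and Cdc45 (r = 0.987, 0.981 and 0.977). The nearest genes of Samhd1 were Pgm2l1, Itgal and Inf2 (r = 0.986, 0.985 and 0.983), and Itgal averaged 8.73, 8.57, 13.3 and 21.8 FPKM in the 4 groups. For Rrm2b they were Gm5900 and the ribosomal pseudogenes Rps2-ps13 and Rpl7a-ps5 at lower values (r = 0.909, 0.886 and 0.882).

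Other genes of DNA replication were set beside the members. Of 43 S-phase genes other than the members, which encode replication factors such as the MCM helicase, 43 rose in Jak2V617F without the transporters, with a median of 1.11. The highest were Cdc6 at 2.17, Uhrf1 at 1.82, Ccne1 at 1.77, Mcm4 at 1.70 and Clspn at 1.59, with limma adjusted p between 0.00036 and 0.00086. On log2(FPKM + 1), Tk1 lay above 38 of the 43 genes and Rrm2 above 34. By contrast, Rrm1 and Dtymk lay above 5, and Rrm2b and Samhd1 lay below all 43. In Jak2WT, 1 of the 43 rose without the transporters and 0 fell, with a median of 0.13, and the count became 2 with the median ratio, 0 with equal totals and 6 with voom. Among GLUT1/3 WT clones 35 of the 43 were lower in Jak2V617F and 0 were higher, with a median of -0.69. Ccne1, the cyclin of the entry into S phase, fell by 1.62, Chaf1b by 1.41, Mcm4 by 1.32, Cdc6 by 1.24 and Fen1 by 1.15. On log2(FPKM + 1) Rrm2 fell more than 42 of the 43, and Rrm2b and Samhd1 lay above all 43. The added 1 shrinks the falls of low genes in this order. Chaf1b, for example, stood at 7.61 and 8.91 FPKM in Jak2WT GLUT1/3 WT against 3.08 and 1.97 in Jak2V617F GLUT1/3 WT. Among GLUT1/3 dKO clones, 12 of the 43 were higher in Jak2V617F, with a median of 0.26.

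The G2 and M genes formed a list of 28. In Jak2V617F, 13 of them rose without the transporters and 0 fell, with a median of 0.22, led by Ccnf at 0.93, Birc5 at 0.80, Aurkb at 0.65, Mki67 at 0.63 and Ttk at 0.57. In Jak2WT 9 of them fell and 0 rose, with a median of -0.31, while 0 of the 9 members passed the test there. Among GLUT1/3 WT clones 17 were lower in Jak2V617F, with a median of -0.46, and Mki67 fell by 1.26, Plk1 by 1.00, Bub1b by 0.90, Aurkb by 0.78 and Cenpf by 0.73. With libraries scaled to the same total FPKM, the 9 genes became 14 and the 17 became 26, in the same directions, and with voom the 9 became 15. Of 13 E2F factors and pocket proteins, 2 of which, E2f1 and E2f2, also stand among the S-phase genes, 7 rose and 1 fell in Jak2V617F without the transporters. E2f2 rose by 1.55, E2f7 by 1.32, E2f8 by 1.20, E2f1 by 1.07 and Tfdp1, the partner of E2F proteins, by 0.66, while E2f5 fell by 0.62. Among GLUT1/3 WT clones, E2f8 fell by 0.90, Tfdp1 by 0.64, E2f1 by 0.42 and E2f7 by 0.38 in Jak2V617F, and E2f6 was higher by 0.54, and the 4 lower genes of this list became 8 with libraries scaled to the same total FPKM. E2f1 stood at 5.65 and 7.04 FPKM in Jak2WT GLUT1/3 WT, 4.71 and 4.20 in Jak2V617F GLUT1/3 WT and 10.4 and 10.6 in Jak2V617F GLUT1/3 dKO.

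Since Rrm2b is itself a target of p53, 20 other p53 target genes were examined, of which 18 passed the filter. Among GLUT1/3 WT clones 12 of the 18 were higher in Jak2V617F and 1, Xpc, was lower, with a median of 0.70. Zmat3, at 1.39, Ccng1, at 1.38, Btg2, at 1.13, Bbc3, at 1.12, and Gadd45a, at 1.05, had the highest values past the threshold, whereas Rrm2b differed by 0.093 and did not pass. Zmat3 averaged 3.64 ± 0.0546 FPKM in Jak2WT GLUT1/3 WT and 11.2 ± 0.133 in Jak2V617F GLUT1/3 WT (SD, n = 2 each). In Jak2V617F without the transporters 3 of the 18 fell, namely Gadd45a by 1.03, Fas by 0.64 and Bbc3 by 0.61, and Btg2 rose by 0.50. These shares, 16.7% lower and 5.56% higher, stood near or below the 16.2% and 13.7% of all genes. In Jak2WT 4 rose and 0 fell. Cdkn1a, the inhibitor of cyclin-dependent kinases, stood between 50.7 and 66.9 FPKM in the 8 libraries.

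**Figure D4:**
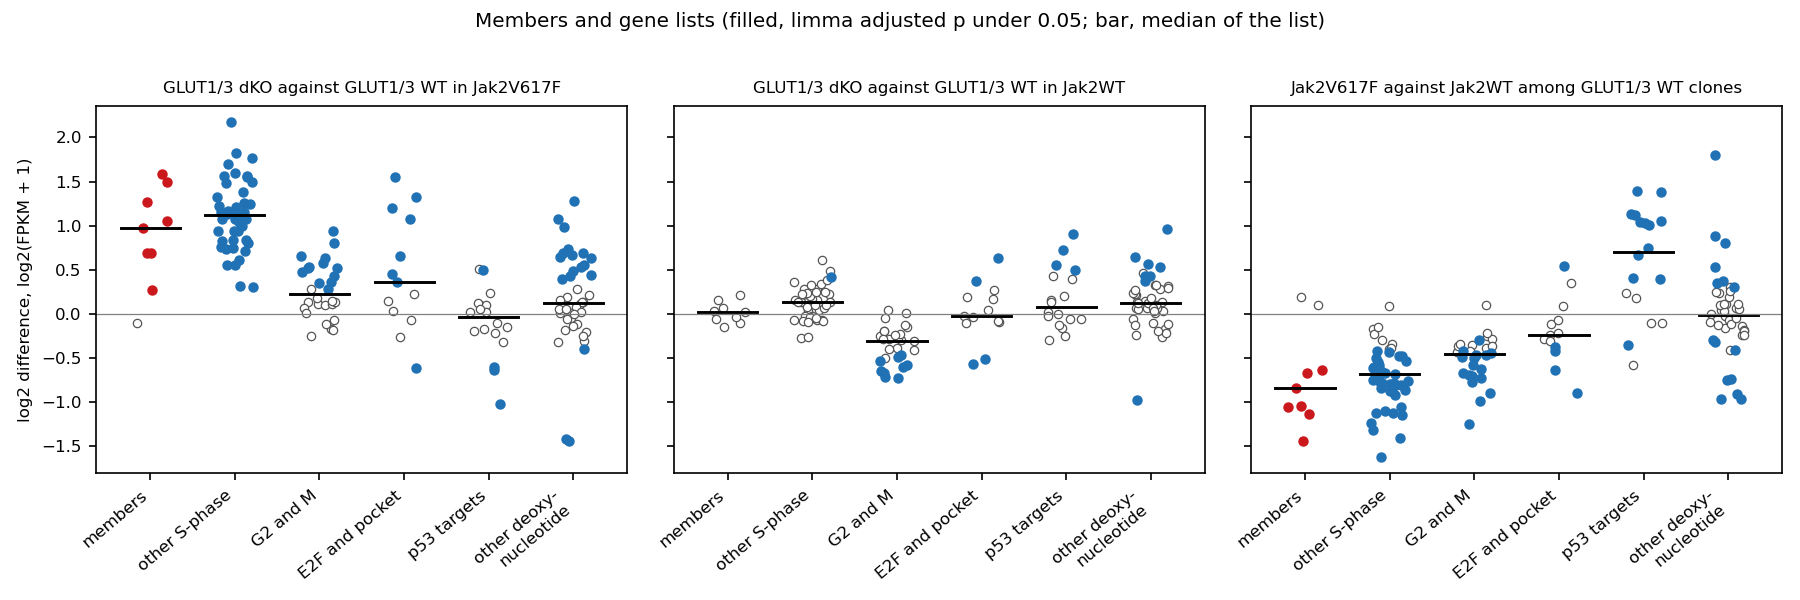
Differences on log2(FPKM + 1) of the 9 members and of the genes of 5 lists that passed the filter, in 3 comparisons, with each point a gene and each bar the median of its list. Filled points passed the adjusted threshold of 0.05; in the first panel 7 of the 9 members lie within the range of the 43 S-phase genes and Rrm2b and Samhd1 lie below all of them, with medians of 0.97 and 1.11, while the other deoxynucleotide genes scatter around 0.12.

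The rest of deoxynucleotide metabolism was described by 54 further genes, of which 42 passed the filter. In Jak2V617F without the transporters 15 of these rose, which is 35.7% against 13.7% of all genes, and 3 fell, which is 7.14% against 16.2%, with a median of 0.12. In Jak2WT 7 rose and 1 fell, with a median of 0.13, and among GLUT1/3 WT clones 7 were higher and 8 lower in Jak2V617F, with a median of -0.016. The last shares, 16.7% and 19.0%, lay near the 15.3% and 14.9% of all genes, and those in Jak2WT were 16.7% and 2.38% against 7.62% and 6.06%. Among GLUT1/3 WT clones the 8 lower genes became 15 with libraries scaled to the same total FPKM, and the 7 higher ones 5. In the folate cycle that feeds thymidylate synthase, Shmt1, a serine hydroxymethyltransferase, rose by 0.99 (limma adjusted p = 0.0011) and Mthfd1, which interconverts one-carbon folates, by 0.53 in Jak2V617F without the transporters. Mthfd1 stood at 25.5 and 20.7 FPKM in Jak2V617F GLUT1/3 WT against 31.3 and 36.2 in dKO and 28.6 and 33.3 in Jak2WT GLUT1/3 WT, and among GLUT1/3 WT clones it fell by 0.41 in Jak2V617F. Shmt1 rose without the transporters in Jak2WT as well, from 19.4 and 22.6 to 32.0 and 34.7 FPKM, where 0 of the members did.

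The mitochondrial salvage genes, with the kinases Tk2 and Dguok that phosphorylate deoxynucleosides inside mitochondria, showed 0 of 5 past the threshold in Jak2V617F and among GLUT1/3 WT clones, and their medians were 0.0092 and 0.058. In Jak2WT without the transporters 1 of the 5, Slc25a33, a mitochondrial carrier of pyrimidine nucleotides, rose by 0.37 (limma adjusted p = 0.025). Tk2 stayed between 1.58 and 2.11 FPKM and Dguok between 2.60 and 3.53 in the 8 libraries. Of 9 nucleotide kinases tested, Ak1 rose by 0.73 and Nme1 by 0.39 in Jak2V617F without the transporters, while Ak4, a mitochondrial adenylate kinase, fell by 1.45. Ak4 fell in Jak2WT too, from 57.6 and 58.7 to 28.5 and 29.4 FPKM. Of the 9, Ak1, at 0.89, and Nme4, at 0.30, were higher and Ak6, at -0.75, was lower in Jak2V617F among GLUT1/3 WT clones. Of 7 electron donors of ribonucleotide reductase, Txnrd1, the cytosolic thioredoxin reductase, rose by 0.44 and Txnrd2 fell by 0.40 in Jak2V617F without the transporters. In the comparison among GLUT1/3 WT clones, Glrx, at 0.52, and Txn2, at 0.35, were higher and Gsr, at -0.74, and Txnrd1, at -0.30, lower in Jak2V617F.

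Genes of breakdown and pool cleaning had 7 of 14 higher and 1 lower in Jak2V617F without the transporters, with a median of 0.35. Adenosine deaminase, encoded by Ada, which removes deoxyadenosine, rose by 1.27 and stood at 2.68 and 1.99 FPKM in Jak2V617F GLUT1/3 WT against 6.58 and 7.51 in dKO. Dctpp1, which cleaves dCTP and its modified forms, rose by 0.69, Pnp by 0.69, Cda by 0.64 and Dnph1 by 0.63, whereas uridine phosphorylase, encoded by Upp1, fell by 1.43. Upp1 went against the members in both comparisons, at 5.24 and 6.67 FPKM in Jak2WT GLUT1/3 WT, 23.8 and 22.3 in Jak2V617F GLUT1/3 WT and 9.87 and 6.35 in Jak2V617F GLUT1/3 dKO. Between the backgrounds with intact transporters, 3 of the 14 were higher in Jak2V617F, Upp1 by 1.80, Nt5c3 by 0.80 and Cda by 0.37, and 3 were lower, Dctpp1 at -0.97, Ada at -0.97 and Nt5c at -0.32. Of 6 nucleoside transporters 2 passed the filter, and Slc29a2, an equilibrative transporter, rose by 0.42 in Jak2V617F without GLUT1 and GLUT3 (limma adjusted p = 0.015) and by 0.56 in Jak2WT without them (limma adjusted p = 0.013).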

How the data were processed

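RNA from 8 clones of 32D cells had been sequenced after poly(A) enrichment, and the authors deposited FPKM per gene. Per the labels' processing notes, reads were handled with featureCounts 2.0.6 for counting, HISAT2 2.2.1 for alignment to mm39 and fastp 1.0.1 for cleaning. The annotation version, the strand setting and the library total of the FPKM are not given in the sources used here. In each library, 100% of the values above 0, multiplied by gene length, were whole reads within a tolerance of 0.01 of a read, and reads per gene were recovered in this way. Between clones of a group the chi-square per gene on these reads was 7.88 to 34.6, where sampling alone gives about 1, so no pair of libraries was counted as a repeat.

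All 8 library columns were assigned from the labels, and 0 were left out. The filter, 1 FPKM or more in 2 or more libraries, kept 11818 of 56748 genes. Their log2(FPKM + 1) was fitted by limma 3.58.1, run in R 4.3.3, with group means, the trend of the spread, 4 residual and 3.34 prior degrees of freedom, and Benjamini-Hochberg adjustment over all genes tested. The fit was tested on simulated data. The members and gene lists were chosen with earlier results of these data known. Named genes are the 9 members, Slc2a1 and Slc2a3, up to 5 genes past the threshold in each direction of each list in the 2 comparisons with Jak2V617F GLUT1/3 WT clones, and the 3 genes most like each member, while further list genes were named after their values were seen. Some items that this rule or the sources name are not reported here. Alternatives were a pseudocount of 0.1, no filter, no trend, scaling of libraries by the median ratio or to equal totals, voom on recovered reads, only the groups compared, the clone number as a replicate block, and each library left out. Where a library was left out, the remaining clone of its group was assumed to vary like the others. Promoter windows came from RefSeq and genome sequence from GRCm39. Values were summarised and plotted with Python 3.11.15, pandas 2.3.3 and matplotlib 3.10.9.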

Additional observations from a re-analysis of the deposited data

Results flagged for a closer look

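For 7 members, the effect of losing GLUT1 and GLUT3 differed between the backgrounds by a test of the difference itself, the interaction in limma. On log2(FPKM + 1), the effect in Jak2V617F exceeded that in Jak2WT by 1.45 for Rrm2, 1.38 for Tk1, 1.19 for Dck, 1.13 for Dut, 1.12 for Tyms, 0.80 for Rrm1 and 0.53 for Dtymk. The count of 7 fell to 0 without Jak2WT GLUT1/3 WT clone 3 and to 1 without clone 1 of that group or without Jak2WT GLUT1/3 dKO clone 1, and the interaction calls over all 11818 genes fell from 1256 to 5, 68 and 63 in the same fits. The call for Dtymk was lost in 10 of 15 alternative fits. With 2 clones in each group, no group was large enough to single out a library by its distance from the others.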

How the results depend on the processing

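Of 45 pairs of a member and a comparison, 25 kept their direction and their side of the threshold under every alternative tried. Of 711 member values, 43 lost the call, 5 gained it and 14 changed sign, all of them uncalled. Counts of members past the threshold were 7 to 8 for the loss of transporters in Jak2V617F, 0 in Jak2WT and 7 for Jak2V617F among GLUT1/3 WT clones. Among GLUT1/3 dKO clones the count of 1 became 2, with Dck, after scaling to the same total (2) or by the median ratio (2) and with voom (2), became 0 in a fit of only the groups compared, which has fewer samples, and ran from 0 to 2 with a library left out. The interaction count of 7 became 3 without a filter on low values, which tests 25788 genes, became 8, with Samhd1, after scaling to the same total FPKM, and ran from 0 to 7 with a library left out. With libraries scaled to the same total FPKM, small differences changed sign for Rrm2 (-0.063), Dck (-0.027) and Samhd1 (-0.080) in Jak2WT without the transporters, for Rrm2b among GLUT1/3 WT clones (-0.0082) and for the interaction of Rrm2b (0.054). Leaving out a library turned values in Jak2WT without the transporters for Rrm2 (-0.12 to 0.18), Rrm2b (-0.11 to 0.039) and Samhd1 (-0.019 to 0.047), and among GLUT1/3 dKO clones for Rrm2 (-0.14 to 0.16), Rrm2b (-0.053 to 0.093) and Dut (-0.057 to 0.22). The cause was not tested. Clone numbers did not pair the samples, since the deviations of same-numbered clones correlated between groups at -0.25 to 0.15. With the clone number as a replicate block the counts were 7, 0, 7, 1 and 6 for the 5 comparisons, having lost Samhd1 (adjusted p = 0.066) in Jak2V617F without the transporters and Dtymk (adjusted p = 0.055) in the interaction. Voom on the recovered reads called 1928 genes higher and 2009 lower for the loss of transporters in Jak2V617F, against 1614 and 1919, and a fit of only the groups compared called 764 and 853. Each group held 2 clones, and every member had at least 291 reads in each library.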
